A study of Mus musculus with 2 samples.

Results

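Aminoacyl-tRNA synthetases are the enzymes that attach each amino acid to its transfer RNA. The genes described here were taken by symbol from the deposited feature list: 35 of its 31055 features, of which 19 encode cytosolic enzymes and 16 encode mitochondrial ones. The mitochondrial genes are those whose symbol ends in 2. Among them Lars2, the mitochondrial leucyl-tRNA synthetase gene, was kept apart because its level and its pattern over cells differed from those of the other 15. All 35 passed the count minimum of 100 UMIs (unique molecular identifiers, counts of captured molecules) over both libraries in tumour-lineage cells.

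The cells came from medulloblastomas of Math1-Cre;SmoM2fl/fl mice, in which Cre under the Math1 (Atoh1) promoter switches on an activated Smoothened, the signal transducer of the SHH pathway, in granule neuron precursors of the cerebellum. Tumour cells exposed to FLASH protons, a beam of ultra-high dose rate, gave 1 library, and tumour cells exposed to standard protons gave 1 library. Both groups carry the same alleles and both were irradiated, and no unirradiated sample was analysed here. The dose is 5 Gy in the labels of both samples, whereas the study's design text has 10 Gy. The sources used here do not state the age or number of the mice or the time after irradiation. After filtering, 9506 FLASH cells (median 5212 UMIs) and 7888 standard cells (median 5571 UMIs) remained. Clusters with markers of the granule neuron lineage made up 7939 cells after FLASH (83.5% of those kept) and 6400 cells after standard irradiation (81.1%), and these are called tumour-lineage cells. Between the libraries 46 barcodes were shared, 21 of them among kept cells.

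With 1 library per group there was no replicate check and no test between the groups. Intervals are at 95% confidence and cover counting error only, which leaves out the spread between animals, preparations and cells. UMIs were summed over the cells of a class and given as counts per 1000000 of that sum (CPM). Each UMI stands for a 3′ end of a transcript, so the values were not divided by gene length, and levels of different genes are compared as molecules captured.

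Each cell needs at least 1 synthetase activity for every amino acid, and cytosolic and mitochondrial protein synthesis use mostly separate enzymes encoded by separate nuclear genes. In mammals Gars and Kars supply both compartments from 1 gene each, and Eprs joins glutamyl- and prolyl-tRNA synthetase in 1 protein. Mitochondria charge their glutamine tRNA by a detour, in which Ears2 attaches glutamate and an amidotransferase converts it. Several cytosolic synthetases (here Dars, Eprs, Iars, Kars, Lars, Qars and Rars) sit in a multisynthetase complex held together by the scaffold proteins Aimp1, Aimp2 and Eef1e1. Many cytosolic synthetase genes are known targets of ATF4, the transcription factor of the amino acid and integrated stress responses. ATF4 binds the C/EBP-ATF response element, whose core is TGATGNAA.

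The RefSeq promoter table for GRCm38.p6 (mm10) matched 26 of the 35 genes, 12 cytosolic and 14 mitochondrial. Each window runs from 250 bases before the transcription start to 50 bases after it. The core TGATGNAA, searched on both strands, was present in 5 of the 12 cytosolic promoters and in 0 of the 14 mitochondrial ones, while 3.97% of all 32851 promoters in the table held it. The 5 genes are those for alanine (Aars), glycine (Gars), isoleucine (Iars), threonine (Tars) and tyrosine (Yars). Aars held 2 copies, whose first bases lie at -112 and 10 relative to the start. The copies of Gars and Tars begin at -30 and -15, and those of Iars and Yars at 8 and 4. These 5 promoters are printed because 4 of these genes stand among the 5 highest cytosolic ratios below. Capitals mark the core, which reads in reverse complement in all but Yars.
Aars (chr8:111033592-111033891, plus strand): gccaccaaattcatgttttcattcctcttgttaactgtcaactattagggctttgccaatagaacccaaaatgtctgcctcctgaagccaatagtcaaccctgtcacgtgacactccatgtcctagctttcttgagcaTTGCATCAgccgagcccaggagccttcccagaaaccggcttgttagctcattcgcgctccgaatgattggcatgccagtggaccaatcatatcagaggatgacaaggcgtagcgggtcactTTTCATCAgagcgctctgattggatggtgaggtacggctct
Gars (chr6:55037751-55038050, plus strand): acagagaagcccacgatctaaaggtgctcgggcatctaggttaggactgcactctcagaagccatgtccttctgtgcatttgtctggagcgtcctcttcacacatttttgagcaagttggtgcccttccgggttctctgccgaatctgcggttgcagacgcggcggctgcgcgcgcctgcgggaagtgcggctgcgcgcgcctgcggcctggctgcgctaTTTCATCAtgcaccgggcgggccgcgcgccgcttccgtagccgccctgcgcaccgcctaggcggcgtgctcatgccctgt
Iars (chr13:49681880-49682179, plus strand): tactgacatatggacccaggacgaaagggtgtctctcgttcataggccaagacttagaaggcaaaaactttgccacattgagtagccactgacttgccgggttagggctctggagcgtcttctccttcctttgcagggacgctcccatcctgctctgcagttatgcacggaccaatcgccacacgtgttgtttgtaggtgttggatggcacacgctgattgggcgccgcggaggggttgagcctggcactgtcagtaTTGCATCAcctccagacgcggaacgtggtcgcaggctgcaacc
Tars (chr15:11399609-11399908, minus strand): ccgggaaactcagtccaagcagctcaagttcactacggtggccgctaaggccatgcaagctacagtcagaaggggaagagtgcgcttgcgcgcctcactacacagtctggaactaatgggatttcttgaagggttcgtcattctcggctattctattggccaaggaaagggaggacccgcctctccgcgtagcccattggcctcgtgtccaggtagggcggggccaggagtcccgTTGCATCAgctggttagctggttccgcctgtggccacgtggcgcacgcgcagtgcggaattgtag
Yars (chr4:129189653-129189952, plus strand): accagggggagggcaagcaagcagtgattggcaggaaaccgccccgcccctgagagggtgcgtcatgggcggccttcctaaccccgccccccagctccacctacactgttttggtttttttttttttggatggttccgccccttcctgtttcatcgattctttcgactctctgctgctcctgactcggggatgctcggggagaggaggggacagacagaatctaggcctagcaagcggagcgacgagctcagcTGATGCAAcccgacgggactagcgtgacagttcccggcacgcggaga

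The E-box CACGTG, bound by factors such as MYC, was present in 4 of the 12 cytosolic promoters (Aars, Farsb, Iars and Tars), in 1 of the 14 mitochondrial ones (Ears2) and in 7.15% of all promoters. The full cAMP response element TGACGTCA occurred in 0 of 12 and 0 of 14, against 1.79% of all. None of the E-box matches shared bases with a match of the core. A match describes these windows only and shows no binding, and Cars, Lars, Nars and 6 other members are not in the table.

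In tumour-lineage cells the cytosolic synthetases together had 1668 CPM (95% interval 1657 to 1680) after FLASH and 1553 CPM (1541 to 1566) after standard irradiation. The 15 mitochondrial genes without Lars2 together had 208 CPM (204 to 212) after FLASH and 206 CPM (202 to 211) after standard irradiation. Lars2 alone had 1078 CPM (1068 to 1087) after FLASH and 1370 CPM (1359 to 1382) after standard irradiation. A single mitochondrial synthetase gene thus gave more UMIs than the 15 others together in either library.

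Levels spread over a wide range within each compartment. The cytosolic genes lay between 25.8 and 325 CPM after FLASH and between 25.7 and 290 CPM after standard irradiation, with medians of 57.7 CPM after FLASH and 55.4 CPM after standard irradiation. Eprs, the dual glutamate and proline enzyme, was the highest of them, at 325 CPM after FLASH and 290 CPM after standard irradiation. Nars, for asparagine, had 185 CPM after FLASH and 179 CPM after standard irradiation, and Sars, for serine, had 183 CPM after FLASH and 182 CPM after standard irradiation. These neighbours in the order, Nars and Sars, had overlapping intervals in each library. At the low end Wars, for tryptophan, had 25.8 CPM after FLASH and 25.7 CPM after standard irradiation, and Qars, for glutamine, had 29.9 CPM after FLASH and 29.2 CPM after standard irradiation.

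The 15 mitochondrial genes lay between 3.78 and 32.6 CPM after FLASH and between 3.61 and 32.1 CPM after standard irradiation. Fars2, for phenylalanine, was the highest, with 32.6 CPM after FLASH and 32.1 CPM after standard irradiation. Iars2 had 25.8 CPM after FLASH and 28.3 CPM after standard irradiation, and Yars2 had 25.6 CPM after FLASH and 24.8 CPM after standard irradiation. Pars2, for proline, was the lowest, with 3.78 CPM after FLASH and 3.61 CPM after standard irradiation. Wars2 (5.57 CPM after FLASH, 5.09 CPM after standard irradiation) and Nars2 (7.07 CPM after FLASH, 6.39 CPM after standard irradiation) came next. Lars2 stood 33.1 times above Fars2 after FLASH and 42.7 times above it after standard irradiation. It also stood 3.32 times above Eprs after FLASH and 4.72 times above it after standard irradiation.

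**Figure D1:**
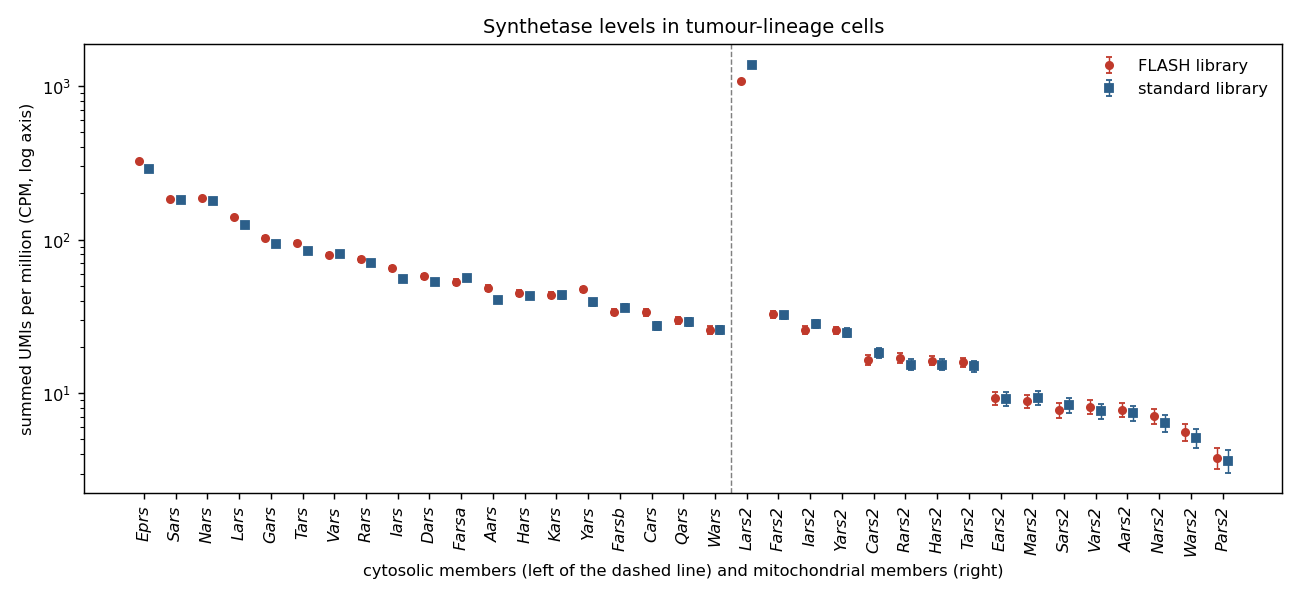
CPM of the 35 synthetase genes in tumour-lineage cells on a log axis, FLASH as red circles and standard as blue squares, with 95% Poisson intervals. Within the mitochondrial genes Lars2 stands apart at 1078 and 1370 CPM, while the other 15 lie at 32.6 CPM or below.

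The share of tumour-lineage cells with at least 1 UMI followed the level. An Eprs UMI was seen in 70.5% of cells after FLASH and in 70.0% after standard irradiation. The median depth was 5532 UMIs after FLASH and 6096 UMIs after standard irradiation. A Pars2 UMI was seen in 2.13% of cells after FLASH and in 2.22% after standard irradiation. Lars2 UMIs were seen in 98.1% of cells after FLASH and in 99.02% after standard irradiation. With each cell thinned to 2000 UMIs, which left out 853 shallower cells of the FLASH library and 760 of the standard library, the Lars2 shares were 86.4% after FLASH and 91.3% after standard irradiation. The thinned shares of Iars were 11.3% after FLASH and 9.22% after standard irradiation (26.2% after FLASH and 24.9% after standard irradiation over all UMIs), and those of Aars were 8.44% after FLASH and 6.76% after standard irradiation, beside 21.4% after FLASH and 19.1% after standard irradiation over all UMIs. No cell type lacks these housekeeping enzymes, so no class could serve to show the share that free RNA gives.

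Set against each other, the libraries differed little for most cytosolic synthetases, and where they differed the value was mostly higher after FLASH. The cytosolic sum had a log2 ratio (FLASH over standard) of 0.10 (0.088 to 0.12) and the mitochondrial sum without Lars2 of 0.012 (-0.031 to 0.055). The ratio of the cytosolic to the mitochondrial sum was 8.03 after FLASH and 7.54 after standard irradiation, a log2 ratio of 0.091 (0.046 to 0.14). Counted per cell, the cytosolic sum was 9.63 UMIs after FLASH and 9.68 UMIs after standard irradiation, at the median depths given above.

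Of the 19 cytosolic genes 16 had a ratio above 0, where 53.3% of all 11947 genes tested did. Their median log2 ratio was 0.072, beside 0.0079 over all genes tested. The counting interval lay above 0 for 10 genes, below 0 for none and held 0 for 9. Over all genes tested it lay above 0 for 13% and below 0 for 10.2%, and over the 5013 genes between the lowest and the highest cytosolic member in level for 18.3% and 12.5%. Only Cars, Yars and Aars passed the fold used to call a gene, 1.2 times higher after FLASH, which 3.53% of all genes tested passed. Among the 5013 genes of like level 0.559% passed it and 56.9% lay above 0. Cells in S, G2 and M phase made up a larger part of the FLASH library (3183 of 7939 cells) than of the standard library (2443 of 6400 cells). With the clusters held to the same mix in both libraries, the cytosolic sum had a log2 ratio of 0.085 and 0 of the 19 genes passed the fold.

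Cars, the cysteinyl-tRNA synthetase gene on chromosome 7 (mm10, 143557230 to 143600090, minus strand), had 33.6 CPM (32.0 to 35.3) after FLASH and 27.3 CPM (25.7 to 29.0) after standard irradiation, a log2 ratio of 0.30 (0.18 to 0.41). Yars, on chromosome 4 (129189760 to 129219607, plus strand), had 47.4 CPM (45.4 to 49.4) after FLASH and 39.1 CPM (37.2 to 41.1) after standard irradiation, a log2 ratio of 0.28 (0.18 to 0.37). In cells thinned to 2000 UMIs its ratio was 0.031. Aars, on chromosome 8 (111033144 to 111057664, plus strand), had 48.5 CPM (46.5 to 50.5) after FLASH and 40.4 CPM (38.4 to 42.4) after standard irradiation, a log2 ratio of 0.26 (0.17 to 0.36). For these 3 genes the intervals of the libraries did not overlap, and the same held for Iars, Tars, Lars, Eprs, Dars and Gars.

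Iars, on chromosome 13 (49682100 to 49734267), had 65.0 CPM after FLASH and 55.4 CPM after standard irradiation, a log2 ratio of 0.23 (0.15 to 0.31). Tars, on chromosome 15 (11382301 to 11399665), had 95.7 CPM after FLASH and 84.2 CPM after standard irradiation, a log2 ratio of 0.18 (0.12 to 0.25). Lars, for cytosolic leucine, followed at 0.18 (0.12 to 0.23) and Eprs, on chromosome 1 (185363044 to 185428360), at 0.16 (0.13 to 0.20). Dars, for aspartate, and Gars both stood at 0.13, and Rars, Hars, Nars, Qars and Sars lay between 0.012 and 0.072. The 7 genes of the multisynthetase complex all lay above 0, and their sum was 735 CPM after FLASH and 665 CPM after standard irradiation, a log2 ratio of 0.14 (0.12 to 0.17). The sum of the other 12 cytosolic genes had a log2 ratio of 0.072 (0.052 to 0.092). The genes above the fold, Cars, Yars and Aars, are not in the complex. At a fold of 1.1 times, 7 cytosolic genes were higher, as were 12% of all genes tested, and none was lower (12.2% of all). At 1.5 times none was past the fold in either direction, against 0.36% of all genes tested higher and 0.536% lower.

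At the other end Farsb and Farsa, the subunits of the cytosolic phenylalanine enzyme, both lay below 0. Farsb had 33.8 CPM after FLASH and 36.1 CPM after standard irradiation, a log2 ratio of -0.092 (-0.20 to 0.012). Farsa had 52.9 CPM after FLASH and 55.9 CPM after standard irradiation, a log2 ratio of -0.078 (-0.16 to 0.0052), and its ratio was 0.026 in thinned cells. Vars, for valine, stood at -0.033, Kars, for lysine, at 0.0026 and Wars at 0.0063, each with an interval that held 0.

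No mitochondrial gene other than Lars2 passed the fold in either direction. Of the 15, 11 lay above 0, where 53.3% of all genes tested did, with a median of 0.064. Their intervals held 0 for 13 genes, lay below 0 for 2 and above 0 for none. Over all genes tested the interval lay below 0 for 10.2% and above 0 for 13%. The highest were Nars2 at 0.15 (-0.095 to 0.39), Rars2 at 0.14 (-0.014 to 0.30) and Wars2 at 0.13 (-0.14 to 0.40). The lowest were Cars2 at -0.15 (-0.30 to -0.0018), Iars2 at -0.14 (-0.26 to -0.018) and Sars2 at -0.11 (-0.33 to 0.11). Hars2, Tars2, Vars2, Aars2, Pars2, Yars2, Fars2 and Ears2 lay between 0.020 and 0.087, and Mars2, for mitochondrial methionine, stood at -0.070. Pars2 rests on 173 UMIs after FLASH and 144 UMIs after standard irradiation, and a difference of 1.2 times was not detectable at that depth. Cars2 encodes the mitochondrial partner of Cars, the cytosolic gene with the highest ratio.

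**Figure D2:**
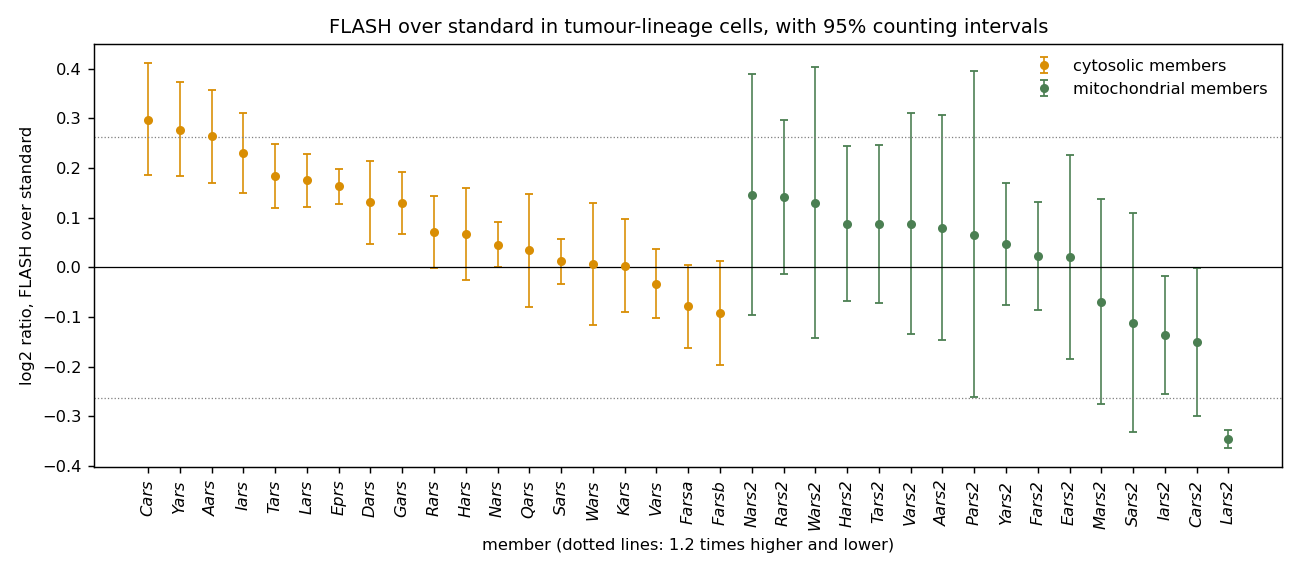
Log2 ratio of FLASH over standard for each synthetase gene in tumour-lineage cells, sorted within compartment, with 95% counting intervals; dotted lines mark 1.2 times. Cars (0.30), Yars (0.28) and Aars (0.26) reach the upper line and Lars2 (-0.35) lies beyond the lower one.

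Set beside the promoters, the 5 cytosolic genes with the TGATGNAA core had log2 ratios from 0.13 (Gars) to 0.28 (Yars), with a median of 0.23. The 7 cytosolic genes in the promoter table without it lay between -0.092 (Farsb) and 0.16 (Eprs), with a median of 0.012. The ranges overlap, since Eprs and Dars lie above Gars. Cars, the highest of all, has no promoter in the table.

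Across the tumour states the cytosolic synthetases differed more than between the libraries: they were high in S, G2 and M phase and low in differentiating cells in both. Cells were clustered without the synthetase genes, and the 13 tumour-lineage clusters were placed in 5 states from fixed markers: Hes1-high progenitor-like, granule neuron progenitor-like, S phase-like, G2 and M phase-like, and differentiating granule neuron-like. Each had 6 to 18 markers of its state above the other clusters, but 3 clusters (led by histone genes, by Srebf1 and Eln, and by Ren1 and Meis2) had none of them among their 10 leading genes. In S phase-like cells the cytosolic sum was 2077 CPM after FLASH and 1914 CPM after standard irradiation. In G2 and M phase-like cells it was 1872 CPM after FLASH and 1781 CPM after standard irradiation. Progenitor-like cells had 1553 CPM after FLASH and 1447 CPM after standard irradiation, and Hes1-high cells had 1439 CPM after FLASH and 1325 CPM after standard irradiation. Differentiating cells were lowest, with 1257 CPM after FLASH and 1228 CPM after standard irradiation.

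The mitochondrial sum without Lars2 ran in another order. Hes1-high cells had the highest value, 240 CPM after FLASH and 249 CPM after standard irradiation, followed by progenitor-like cells with 225 CPM after FLASH and 226 CPM after standard irradiation. S phase-like cells had 214 CPM in each library. G2 and M phase-like cells had 188 CPM after FLASH and 185 CPM after standard irradiation, and differentiating cells had 191 CPM after FLASH and 183 CPM after standard irradiation, so these 2 states had overlapping intervals. The cytosolic sum was 9.95 times the mitochondrial sum in G2 and M phase-like cells after FLASH and 9.61 times after standard irradiation. In Hes1-high cells it was 5.99 times after FLASH and 5.32 times after standard irradiation.

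**Figure D3:**
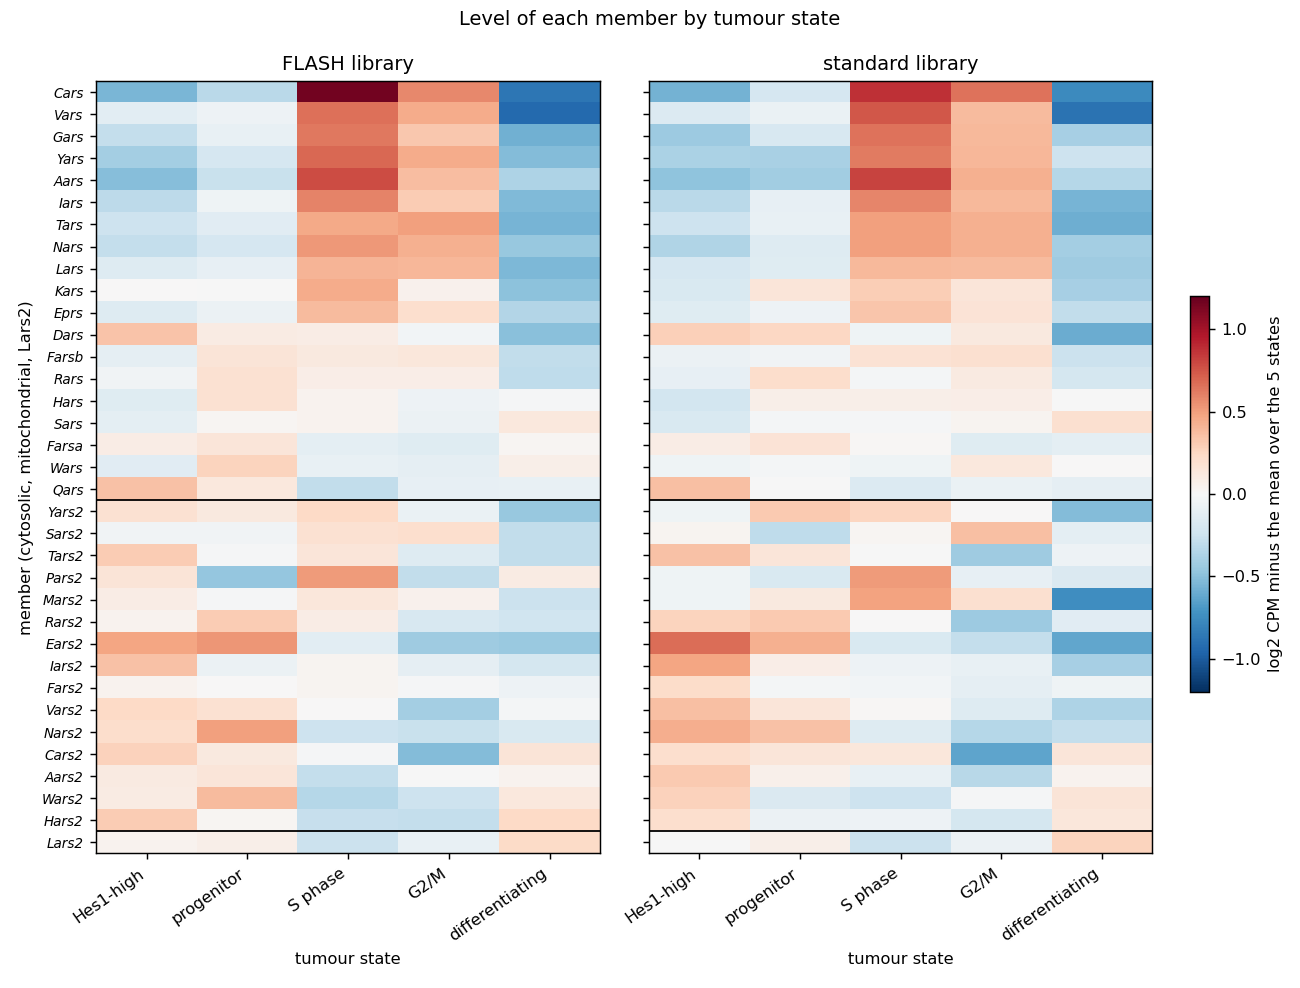
Log2 CPM of each gene in the 5 tumour states, centred on the mean over the states, in the FLASH library (left) and the standard library (right). Of the cytosolic genes Cars and Vars have the highest ratios of cycling over differentiating cells in both libraries, while Sars, Farsa, Wars and Hars vary least over the states and most mitochondrial genes are highest in the progenitor states.

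In cycling cells (S, G2 and M together) over differentiating cells, 11 of 19 cytosolic genes were at least 1.5 times higher in the FLASH library and 11 of 19 in the standard library. Of all genes tested, 19% were so in the FLASH library and 18.4% in the standard library. The cytosolic median was 0.78 after FLASH and 0.62 after standard irradiation, beside -0.081 after FLASH and -0.088 after standard irradiation over all genes tested. Of the 15 mitochondrial genes 0 were past this fold after FLASH and 2 (Mars2 and Yars2) after standard irradiation, with medians of 0.099 after FLASH and 0.043 after standard irradiation. Median depths in the FLASH library were 6990 UMIs in cycling and 4383 UMIs in differentiating cells, and in the standard library 7878 and 4907 UMIs in these classes. The part of depth in these contrasts was not tested.

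Cars varied most with the cycle. In the FLASH library it had 51.2 CPM in cycling cells and 14.7 CPM in differentiating cells, a log2 ratio of 1.79 (1.57 to 2.04). In the standard library it had 40.8 CPM in cycling cells and 14.0 CPM in differentiating cells, a log2 ratio of 1.54 (1.29 to 1.80). Vars came next, with 107 CPM in cycling and 38.0 CPM in differentiating cells after FLASH (log2 ratio 1.5) and with 112 CPM in cycling and 40.7 CPM in differentiating cells after standard irradiation (1.46). Between the libraries Vars had a log2 ratio of -0.033 (-0.10 to 0.036) in tumour-lineage cells.

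Yars, Gars, Tars, Iars and Aars had log2 ratios of cycling over differentiating cells from 0.99 to 1.1 after FLASH and from 0.77 to 1.05 after standard irradiation. These are the 5 genes with the promoter core. The 7 cytosolic genes in the promoter table without it lay between -0.15 and 0.78 after FLASH and between -0.18 and 0.62 after standard irradiation, so the ranges did not overlap in either library. Cytosolic genes with no promoter in the table, Cars and Vars among them, spanned both ranges. After FLASH they ran from -0.16 (Wars) to 1.79 (Cars), and after standard irradiation from 0.030 (Wars) to 1.54 (Cars). Whether they hold the core is not known here. Sars went the other way, with 180 CPM in cycling and 198 CPM in differentiating cells after FLASH (log2 ratio -0.13). After standard irradiation it had 179 CPM in cycling and 203 CPM in differentiating cells (-0.18). Qars, Wars, Hars and Farsa lay between -0.16 and 0.086 in both libraries.

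By state, 15 of the 19 cytosolic genes had their highest value in the same state in both libraries. S phase-like cells held the highest value of 10 cytosolic genes after FLASH and of 11 after standard irradiation. Of the 15 mitochondrial genes 10 had the same highest state in both. Hes1-high cells held the highest value of 6 mitochondrial genes after FLASH and of 10 after standard irradiation. The same shares over all genes were not computed, so these counts only describe the members. Some ranges were narrow: the highest state was 1.08 times the lowest for Fars2 after FLASH and 1.13 times for Wars after standard irradiation. Ears2, which starts the glutamine detour, had 13.3 CPM in Hes1-high cells and 7.07 CPM in differentiating cells after FLASH, and 15.04 CPM in Hes1-high and 6.15 CPM in differentiating cells after standard irradiation. The mitochondrial genes with the highest cycling over differentiating ratios were Yars2 after FLASH (0.56) and Mars2 after standard irradiation (1.09), and Mars2 had 0.35 after FLASH.

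Within states, the ratio of FLASH over standard for the cytosolic sum was 0.12 in Hes1-high cells, 0.10 in progenitor-like cells, 0.12 in S phase-like cells, 0.072 in G2 and M phase-like cells and 0.034 (-0.00013 to 0.067) in differentiating cells. Of the 19 cytosolic genes 15 lay above 0 in Hes1-high cells (53.6% of all genes tested), 14 in progenitor-like cells (50.1%) and 14 in S phase-like cells (54.1%). There were 12 in G2 and M phase-like cells (53%) and 11 in differentiating cells (52%). Of the mitochondrial genes without Lars2 that had enough UMIs, 4 of 13 lay above 0 in Hes1-high cells and 4 of 8 in progenitor-like cells. In S phase-like cells 9 of 14 did, in G2 and M phase-like cells 6 of 13 and in differentiating cells 11 of 14. Aars, Cars, Eprs, Iars, Lars and Tars were above 0 in all 5 states. Whether the ratio differs between states was not tested, since there is 1 library per group. In differentiating cells the ratio of the cytosolic to the mitochondrial sum was 6.58 after FLASH and 6.70 after standard irradiation, a log2 ratio of -0.027 (-0.12 to 0.066).

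Among single clusters the cytosolic log2 ratio was above 0 in 11 of 13, from -0.12 to 0.26. The exceptions were clusters of low depth: the cluster led by Tubb3 and Stmn2, with 1011 CPM after FLASH and 1103 CPM after standard irradiation, and the cluster led by Hist1h4d and Ube2c, with 1651 CPM after FLASH and 1661 CPM after standard irradiation. The highest ratio, 0.26 (0.081 to 0.44), was in the cluster led by Ren1 and Meis2, which held 160 FLASH cells and 40 standard cells. The histone-rich S phase cluster had the highest cytosolic level, 2262 CPM after FLASH and 2057 CPM after standard irradiation. The log2 ratio of the mitochondrial sum without Lars2 was above 0 in 5 of 13 clusters, from -0.12 to 0.27. The highest, 0.27 (0.071 to 0.47), was in the G2 and M cluster led by Ccnb2 and Cenpa. There the ratio of the cytosolic to the mitochondrial sum was 8.33 after FLASH and 10.01 after standard irradiation, a log2 ratio of -0.26 (-0.47 to -0.057).

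**Figure D4:**
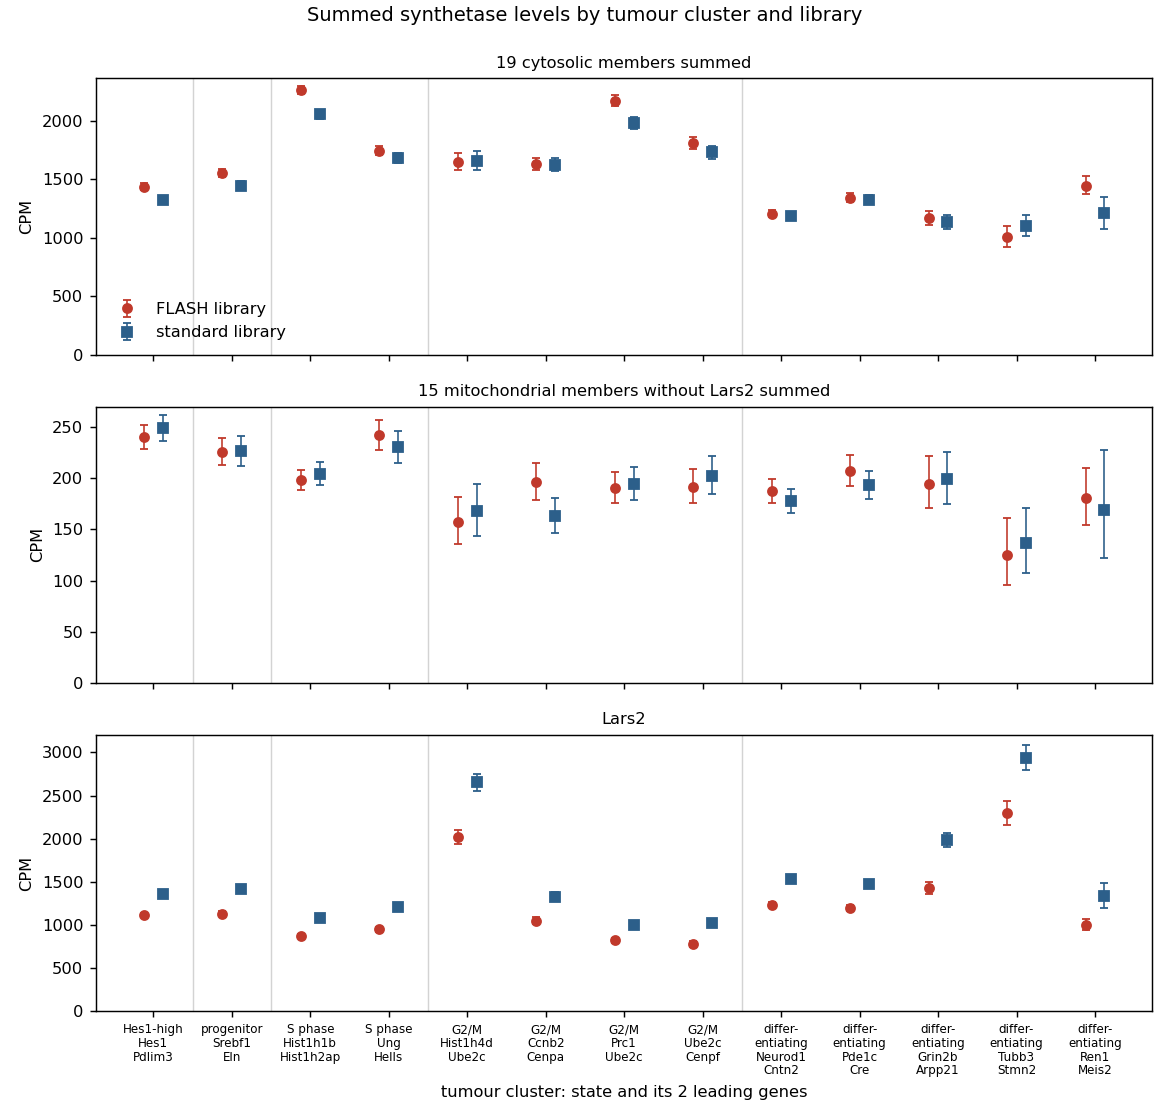
Summed CPM of the cytosolic genes, the 15 mitochondrial genes and Lars2 in each of 13 tumour clusters, FLASH as red circles and standard as blue squares, with 95% Poisson intervals. The cytosolic sum is highest in the histone-rich S phase cluster (2262 and 2057 CPM), and Lars2 is lower after FLASH in all 13.

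The genes whose level followed the cytosolic sum most closely over 26 points, the 13 tumour clusters in each of 2 libraries, were Hirip3 (Pearson r 0.97), Cep83 (0.95), Ssrp1 (0.95), Usp1 (0.95) and Psat1 (0.94), out of 3305 genes with at least 50 CPM. Ssrp1 encodes a subunit of the FACT histone chaperone and Psat1 an enzyme of serine synthesis. Points of 1 library share that library's preparation, and clusters differ in depth, so these are descriptions. Of the single cytosolic genes, Lars (0.95), Iars (0.93) and Gars (0.90) followed the sum of the others most closely, while Qars (-0.067), Wars (-0.067) and Sars (-0.31) did not follow it.

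Lars2 was the member with the largest difference between the libraries and the only one lower after FLASH by at least 1.2 times, which 3.71% of all genes tested were. It lies on chromosome 9 (123366927 to 123462666, plus strand). Its log2 ratio was -0.35 (-0.36 to -0.33), and per cell it gave 6.22 UMIs after FLASH and 8.54 UMIs after standard irradiation. In each of the 13 tumour clusters Lars2 was lower after FLASH, with log2 ratios from -0.48 to -0.28. Its level ran from 779 to 2293 CPM over the clusters after FLASH and from 1002 to 2939 CPM after standard irradiation, highest in the low-depth clusters.

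With all clusters of a state summed, Lars2 was highest in differentiating cells and lowest in S phase-like cells. Differentiating cells had 1268 CPM after FLASH and 1630 CPM after standard irradiation. S phase-like cells had 904 CPM after FLASH and 1132 CPM after standard irradiation. G2 and M phase-like cells had 1014 and 1291 CPM in the same order, with a low-depth cluster (led by Hist1h4d and Ube2c) at 2017 and 2654 CPM. Their clusters led by Prc1 (823 and 1002 CPM) and by Ube2c and Cenpf (779 and 1019 CPM) lay below the S phase-like values. The cluster led by Ccnb2 had 1050 and 1329 CPM. State values of Lars2 without the low-depth clusters were not computed. Over the 26 cluster points Lars2 followed Gm42418, a gene model that overlaps a ribosomal RNA repeat, with a Pearson r of 0.96. The same measure was -0.69 for the cytosolic sum and -0.66 for the mitochondrial sum without Lars2. The 15 other mitochondrial genes had values from -0.76 (Iars2) to 0.30 (Fars2). All these values include the 2 low-depth clusters, which had 87143 to 101822 CPM of Gm42418 and 125 to 168 CPM of the mitochondrial sum without Lars2. The other clusters had at most 70542 CPM of Gm42418. The correlations without the low-depth clusters were not computed.

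Gm42418 itself had 51054 CPM after FLASH and 54285 CPM after standard irradiation, a log2 ratio of -0.089. AY036118, another model tied to ribosomal RNA, had 2211 CPM after FLASH and 2058 CPM after standard irradiation, and the nuclear RNA Malat1 had a log2 ratio of -0.13. Mitochondrial UMIs made up 3.67% after FLASH and 3.54% after standard irradiation. In absolute log2 ratio Lars2 differed more than any of these 4 measures. Such a comparison does not show what part these RNAs have in the Lars2 values, and that part was not tested.

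Outside the tumour lineage Lars2 differed in the same direction. Macrophage-, microglia- and monocyte-like cells together (346 FLASH cells, 327 standard cells) had 812 CPM of Lars2 after FLASH and 1151 CPM after standard irradiation, a log2 ratio of -0.50 (-0.59 to -0.42). Oligodendrocyte lineage-like cells had 1114 CPM after FLASH and 1520 CPM after standard irradiation, a log2 ratio of -0.45 (-0.57 to -0.33). Gm42418 in the myeloid cells had 52552 CPM after FLASH and 68464 CPM after standard irradiation. In the oligodendrocyte lineage-like cells it had 52432 CPM after FLASH and 57073 CPM after standard irradiation. Its part in the Lars2 values was not tested here either. The cytosolic sum in the myeloid cells was 923 CPM after FLASH and 922 CPM after standard irradiation, a log2 ratio of 0.0020 (-0.086 to 0.090). It was lower there than in any tumour state, and the mitochondrial sum without Lars2 was 139 CPM in each library.

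**Figure D5:**
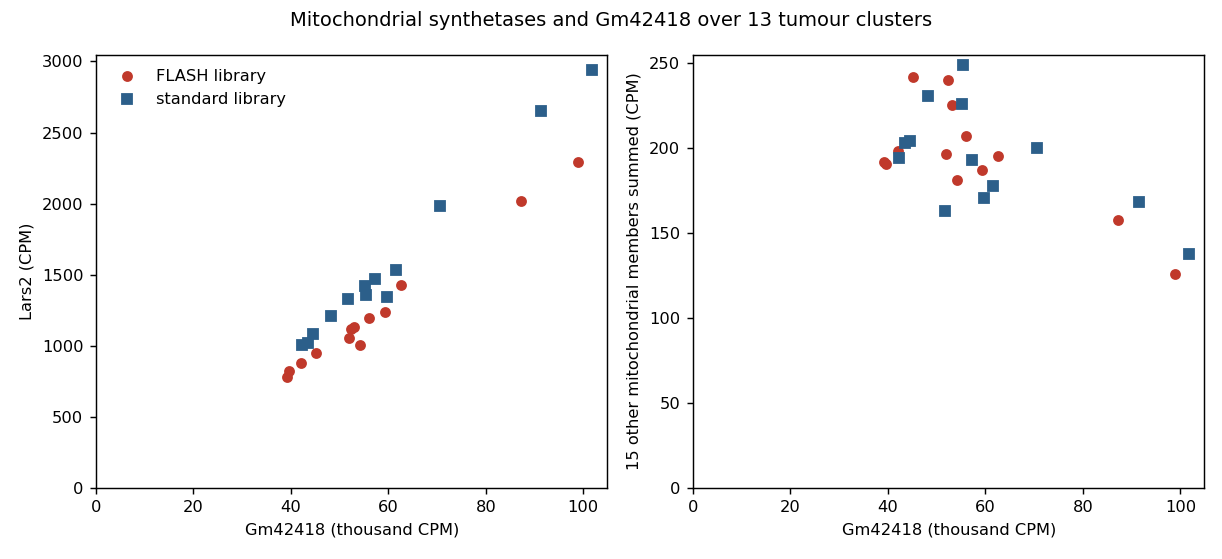
Lars2 (left) and the sum of the 15 other mitochondrial genes (right) against Gm42418 over 13 tumour clusters, FLASH as red circles and standard as blue squares. Lars2 climbs with Gm42418 (r 0.96 over 26 points) and lies lower in FLASH clusters, while the other mitochondrial genes do not climb with it (r -0.66). Both r values include the low-depth clusters, which have the highest Gm42418.

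The genes that work beside the synthetases were listed with earlier results of these data known. Of 30 ATF4 targets other than synthetases, 25 had a ratio above 0, 17 were at least 1.2 times higher after FLASH and none was lower by that fold, with a median log2 ratio of 0.28. Over all genes tested 53.3% lay above 0, 3.53% were higher and 3.71% were lower by that fold. Among those with enough UMIs in each state, the median was 0.15 in Hes1-high cells, 0.25 in progenitor-like cells, 0.24 in S phase-like cells, 0.24 in G2 and M phase-like cells and 0.16 in differentiating cells. Trib3, a pseudokinase induced by ATF4, had 1.59 CPM after FLASH and 0.802 CPM after standard irradiation, a log2 ratio of 0.98 (0.37 to 1.64). Nupr1, a stress-induced chromatin protein, had 31.7 CPM after FLASH and 18.1 CPM after standard irradiation (0.81). Slc7a11, the cystine carrier, had 7.81 CPM after FLASH and 4.46 CPM after standard irradiation (0.81).

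The scaffolds of the multisynthetase complex lay near 0. Eef1e1 had 53.3 CPM after FLASH and 55.8 CPM after standard irradiation (-0.068), Aimp1 had 213 CPM after FLASH and 219 CPM after standard irradiation (-0.036), and Aimp2 had 42.1 CPM after FLASH and 40.9 CPM after standard irradiation (0.041), each with an interval that held 0. Of 13 genes that assist or follow tRNA charging, 8 lay above 0 and 0 passed the fold. Over all genes tested 53.3% lay above 0, 3.53% were higher and 3.71% were lower by that fold. The largest of them were Mtfmt, which formylates the mitochondrial initiator (-0.22, -0.39 to -0.053), the selenocysteine enzyme gene Sepsecs (0.16) and Gatb, a subunit of the glutamine amidotransferase (0.12). Of 6 cytosolic elongation factors 5 lay above 0, with Eef1b2 at 0.073, Eef1g at 0.070 and Eef2 at 0.045.

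Of 19 genes of mitochondrial translation 6 lay above 0, with a median of -0.016. Mtif3 (-0.22) and Mtif2 (0.18), both initiation factors, and the release factor gene Mtrf1l (-0.17) had the largest ratios. Of 12 genes of ribosome biogenesis and proliferation 6 lay above 0, with a median of 0.012. The nucleolar protein gene Npm1 had a ratio of 0.088, Mycn had 134 CPM after FLASH and 143 CPM after standard irradiation (-0.092), and Myc had 27.0 CPM after FLASH and 29.2 CPM after standard irradiation (-0.11). None of the genes in these 5 lists passed 1.2 times in either direction. Few genes did so over all genes tested, 3.53% higher and 3.71% lower, while 53.3% lay above 0. Among the 5013 genes at the level of the cytosolic synthetases 0.559% were higher by that fold.

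Hars and Hars2 lie head to head on opposite strands of chromosome 18 (36766528 to 36783205 and 36783008 to 36792562), and their models overlap at the 5′ ends. Their log2 ratios of FLASH over standard were 0.067 and 0.087. The shared stretch lies away from the 3′ ends of both genes, for which the UMIs stand. The sources used here do not say whether the counting used strand, so any reads in that stretch are uncertain.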

How the data were processed

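Single-cell RNA sequencing (V3 chemistry of 10x Genomics) was deposited for 1 library per group. The deposited matrices hold raw UMI counts. Per the file headers, the authors used Cell Ranger 6.1.2, and per the submitters' processing notes the build was mm10. No source used here names the annotation release. Depth was 63178900 UMIs in 14269 barcodes for FLASH and 55532202 UMIs in 12867 barcodes for standard.

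Barcodes with at least 500 genes and at most 10% mitochondrial UMIs were kept. Scrublet in scanpy 1.11.5 marked 0 cells by its automatic cutoff in either library, so the top-scoring cells, 0.8% per 1000 cells, were dropped (860 FLASH, 573 standard). After log-transformation of counts scaled to 10000 per cell, 2000 variable genes without the synthetase and pathway genes, 30 principal components and 15 neighbours gave 26 Leiden clusters at resolution 1.0 (leidenalg 0.10.2). Clusters took a "-like" name from marker lists. For a class outside the tumour lineage, the markers had to average a log2 ratio of 1.5 or more, with 3 of them at 1.0 or above. Other clusters took the tumour state with the highest average. 928 FLASH cells and 956 standard cells stayed unnamed.

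UMIs were summed per library and class. CPM have exact Poisson intervals, and log2 ratios, with 0.5 count added, have exact conditional binomial intervals. Shares of cells are binomial. A gene needed 100 UMIs in the 2 libraries together. The scripts were tested on simulated data. Gene positions are from GENCODE by gene ID, and promoter sequences from RefSeq (GRCm38.p6).

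The members, lists and alternatives were chosen with earlier results of these data known. By rule, the text names the 5 cytosolic and 3 mitochondrial genes with the highest and lowest ratios, the 3 with the highest and lowest levels, each gene past 1.2 times, the 5 genes most like the cytosolic sum and 3 from each other list. Genes named for their state pattern were chosen after their values were seen.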

Additional observations from a re-analysis of the deposited data

Results flagged for a closer look

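Barcodes that the filters left out carried a higher Lars2 level in CPM than any tumour state. Barcodes with fewer than 500 genes had 3061 CPM of Lars2 in the FLASH library and 4704 CPM in the standard library. Barcodes with at least 500 genes and over 10% mitochondrial UMIs had 2693 CPM in the FLASH library and 3906 CPM in the standard library. FLASH over standard, the log2 ratio was -0.62 (-0.66 to -0.58) in the barcodes with few genes and -0.54 (-0.58 to -0.49) in those with many mitochondrial UMIs. In the barcodes with few genes the cytosolic sum was 867 CPM after FLASH and 891 CPM after standard irradiation, and Gm42418 had 104798 CPM after FLASH and 132178 CPM after standard irradiation. What these barcodes contribute to Lars2 in kept cells was not tested.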

How the results depend on the processing

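Lars2 stayed below 0 in all 22 alternatives, between -0.40 and -0.33. It was -0.40 with at most 20% mitochondrial UMIs, -0.39 with doublets kept, -0.38 at resolution 0.5, -0.38 over all kept cells, -0.33 with clusters in the same mix and -0.33 in progenitor-like cells alone. The cytosolic sum stayed above 0 in all 22, with 0.12 at most 5% mitochondrial UMIs, 0.085 in thinned cells, 0.085 in the same mix and 0.034 in differentiating cells alone. The mitochondrial sum without Lars2 was 0.060 in differentiating cells. The cytosolic over mitochondrial ratio was 0.14 at most 5% mitochondrial UMIs and turned to -0.027 in differentiating cells, as did Gars (-0.052), Nars (-0.025) and Yars (-0.011), while Iars2 turned to 0.032. The count of 3 cytosolic genes past 1.2 times rests on values close to that fold. It was 1 when the minimum was 200 or 1000 genes and when the mitochondrial limit was 20%. It was 0 with doublets kept, at resolution 0.5, in the same mix, over all kept cells, in differentiating cells and at a fold of 1.5, and 7 at a fold of 1.1. The mitochondrial count of 1 was 2 in thinned cells, 4 in differentiating cells, 4 at a fold of 1.1 and 0 at a fold of 1.5. Of 748 values of single genes other than Lars2, 728 stayed within the counting interval of the reported value, 16 left it and 4 turned as named above. Counting also genes whose interval held 0, 39 of the 748 had another sign, in 8 of 19 cytosolic and 8 of 15 mitochondrial genes, 10 of them in differentiating cells. Of the 22 Lars2 values 6 left their interval. With the synthetase genes kept in the clustering, S phase-like cells had 2056 CPM of the cytosolic sum after FLASH and 1899 CPM after standard irradiation, again the highest state. The 3 alternatives added after seeing the data (without the cluster led by Ren1 and Meis2, without the 2 tumour clusters of low depth, without shared barcodes) changed none of these summary values by more than their counting interval. Causes of these changes were not tested. No paired analysis was possible because each group has 1 library. At this depth the intervals of the mitochondrial genes are wide, and a difference between mice cannot be told apart from one between treatments.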

Other observations

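In 2 unnamed clusters the mitochondrial sum or Lars2 lay above every tumour state, while most cytosolic sums lay within the range of these states. In the cluster led by long nuclear RNAs such as Gm26917 and Miat (267 FLASH cells, 386 standard cells), the mitochondrial sum without Lars2 was 307 CPM after FLASH and 313 CPM after standard irradiation, above every tumour state. Its cytosolic sum was 1888 CPM after FLASH and 1678 CPM after standard irradiation. In the cluster led by Pcp4 and AY036118 (620 FLASH cells, 557 standard cells), at median depths of 1323 UMIs after FLASH and 1353 UMIs after standard irradiation, the cytosolic sum was 1249 CPM after FLASH and 1377 CPM after standard irradiation. Lars2 had 2103 CPM there after FLASH and 3014 CPM after standard irradiation.

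Erythroid-like cells (35 FLASH, 28 standard) had 1035 CPM of the cytosolic sum after FLASH and 702 CPM after standard irradiation, a log2 ratio of 0.56 (0.26 to 0.87). Endothelial-like cells (48 FLASH, 31 standard) had 944 CPM after FLASH and 1053 CPM after standard irradiation, a log2 ratio of -0.16 (-0.49 to 0.17). Few cells stand behind both values.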
